A study of Homo sapiens with 6 samples.

Results

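The loci of 9 genes of the WNT pathway were examined in human embryonic stem cells of the line WA09, through the open chromatin regions whose midpoint lay in a fixed hg19 window around WNT3, FZD7, DKK1, SFRP2, FRZB, LEF1, TCF7L1, AXIN2 or SP5. These windows held 78 of the 118556 regions in the deposited table. FAST-ATAC, which tags accessible DNA with adapters carried by Tn5 transposase, was run on 3 biological replicates of each of 2 populations sorted from cultures of this line, for which the sample labels name no drug. The first was GCTM-2high CD9high EPCAMhigh (the high population), and the second was GCTM-2mid CD9mid, for which the labels state no EPCAM gate (the mid population, called low in the sample titles). GCTM-2 is an antibody to a stem cell surface antigen, and CD9 and EPCAM are surface proteins of pluripotent cells. Both populations came from a single cell line, so p-values measure the spread between these samples and not between lines. Since each library pools many cells, more cells with an open site and a more open site in each cell cannot be told apart.

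WNT ligands bind Frizzled receptors and LRP co-receptors at the cell surface. This stabilises beta-catenin, which enters the nucleus and joins DNA-binding proteins of the TCF/LEF family at target genes. Secreted antagonists act outside the cell, either on the co-receptor (DKK1) or by binding the ligand (SFRP2 and FRZB). In pluripotent cells the pathway is known for driving primitive streak and mesendoderm differentiation. Among the members, WNT3 is a ligand, FZD7 a receptor, LEF1 and TCF7L1 DNA-binding effectors, and AXIN2 and SP5 target genes that feed back on the signal. No annotation of hg19 was used here, so a region is named by its locus and its number from left to right in the window, and whether it lies at a promoter, in an intron or in a neighbouring gene was not determined. For the same reason, other genes of the pathway were not analysed here.

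Promoter sequences from RefSeq (GRCh38.p14) were matched for 7 of the 9 members, all but FZD7 and AXIN2. The 250 bases before the start of 4 genes are shown 5′ to 3′ on the gene's strand, because they carry the target sequence of TCF/LEF proteins (SP5, DKK1) or belong to the members whose most-read regions lay at the lower and upper ends of the comparison between populations (WNT3, FRZB). Capitals mark a TCF/LEF core, searched as CTTTGAA or CTTTGAT on both strands.
SP5 (chr2:170715087-170715336, + strand): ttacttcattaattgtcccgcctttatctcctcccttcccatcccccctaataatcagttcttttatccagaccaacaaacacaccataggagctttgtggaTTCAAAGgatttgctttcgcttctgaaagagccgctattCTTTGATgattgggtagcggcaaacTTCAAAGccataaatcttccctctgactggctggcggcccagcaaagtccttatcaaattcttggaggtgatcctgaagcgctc
DKK1 (chr10:52314031-52314280, + strand): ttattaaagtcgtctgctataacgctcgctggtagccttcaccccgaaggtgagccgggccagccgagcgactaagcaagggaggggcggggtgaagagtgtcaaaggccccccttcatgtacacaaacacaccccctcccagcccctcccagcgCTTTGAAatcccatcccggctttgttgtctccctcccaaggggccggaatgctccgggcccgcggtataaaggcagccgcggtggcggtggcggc
WNT3 (chr17:46818693-46818942, - strand): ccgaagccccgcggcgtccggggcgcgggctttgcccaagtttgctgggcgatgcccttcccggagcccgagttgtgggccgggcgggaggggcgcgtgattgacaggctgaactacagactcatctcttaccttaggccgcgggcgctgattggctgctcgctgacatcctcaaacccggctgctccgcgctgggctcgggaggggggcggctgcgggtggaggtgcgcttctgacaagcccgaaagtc
FRZB (chr2:182866638-182866887, - strand): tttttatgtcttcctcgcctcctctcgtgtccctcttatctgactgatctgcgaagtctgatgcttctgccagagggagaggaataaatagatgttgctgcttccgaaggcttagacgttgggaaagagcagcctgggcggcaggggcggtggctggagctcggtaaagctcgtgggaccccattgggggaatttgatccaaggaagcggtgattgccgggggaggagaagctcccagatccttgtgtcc
SP5 held 3 matches, which began 148, 109 and 84 bases before the start, and DKK1 held 1, which began 95 bases before it. The other 5 promoters with a sequence (WNT3, SFRP2, FRZB, LEF1 and TCF7L1) held none. Of all 35116 RefSeq promoters, 5.94% held at least 1 match in the same window and 0.0199% held 3 or more. GC content ran from 45.6% in SP5 to 72.0% in TCF7L1, against a median of 58.0% over all promoters, and was 68.8% in WNT3 and 55.6% in FRZB. These letters are a description of the genes. Their positions are in another build than the open regions and were not joined to them.

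Total counts ran from 15486251 to 29025274 per library. The 78 regions held 0.112% to 0.118% of them in each library, and between 212 and 16233 reads per region over the 6 samples. Windows around POU5F1, SOX2 and NANOG, set from general knowledge of hg19 and not from an annotation, held 3, 3 and 4 open regions, and those around CD9 and EPCAM held 5 and 4. Of these, 1 region at POU5F1 was called more accessible in the mid population and none elsewhere was called, where 6.09% of all regions were called in either direction. Regions of at least 4000 bp held 8.62% to 8.79% of the counts in the high libraries and more in each mid library, up to 11.2%. This shift moved with the calls at wide members, and its part in them was not tested.

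Summed over its open regions, a locus was lower in the high population in all 3 same-numbered pairs at WNT3, FZD7, AXIN2 and SP5, and higher in all 3 pairs at FRZB. DKK1, SFRP2, LEF1 and TCF7L1 did not move the same way in every pair. In CPM (counts scaled to library size with TMM factors, edgeR's correction for composition), the 9 regions of WNT3 summed to 94.9, 108 and 108 in high replicates 1, 2 and 3 and to 153, 149 and 149 in mid replicates 1, 2 and 3. No high value fell among the mid values, and the mean difference over pairs was -0.54 ± 0.13 on the log2 scale (SD, n = 3). The corresponding differences were -0.34 ± 0.05 at SP5, -0.32 ± 0.02 at AXIN2 and -0.29 ± 0.27 at FZD7, where mid replicate 1 (224 CPM) stood above mid replicates 2 and 3 (155 and 157). Without the replicate 1 pair the difference at FZD7 was -0.13. At FRZB the 7 regions summed to 64.9, 63.8 and 58.3 CPM in the high population and to 52.2, 50.0 and 55.9 in the mid population, a difference of 0.24 ± 0.16. The differences at the other loci were 0.09 ± 0.11 at SFRP2, 0.06 ± 0.22 at DKK1, -0.03 ± 0.11 at LEF1 and -0.06 ± 0.19 at TCF7L1, each smaller than its spread over pairs. An exact permutation test (two-sided) gave p = 0.1 for each of the 5 loci that did not overlap, the smallest p that 3 samples against 3 allow, and 0.18 after Benjamini-Hochberg adjustment over 9 loci. Without the most-read region of each locus, 2 loci in place of 4 were lower in the high population in every pair.

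**Figure D1:**
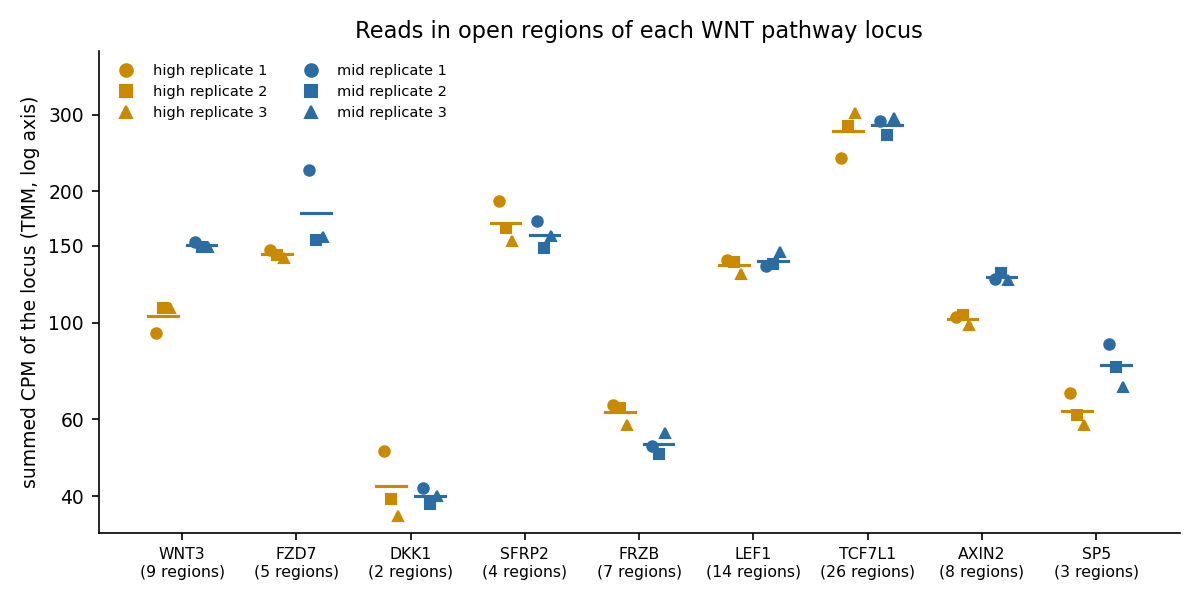
Summed CPM of the open regions in each locus (log axis) for 3 high and 3 mid replicates, with horizontal bars at the group means. WNT3, FZD7, AXIN2 and SP5 lie lower in the high replicates and FRZB higher, with no overlap between populations, and the other 4 loci overlap. Sums of other windows were not computed for comparison.

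Per kilobase of open sequence, the mean level of a locus ran from 6.62 CPM per kb (WNT3) to 13.4 (SFRP2) in the high population and from 7.30 (FRZB) to 12.6 (SFRP2) in the mid population. WNT3 was the lowest of the 9 loci in the high population, and FRZB was the lowest in the mid population, where WNT3 stood at 9.59. A single region held most of the locus's reads at SP5 (94.3%), SFRP2 (72.9%), DKK1 (70.6%), FZD7 (55.9%) and FRZB (52.4%), while at TCF7L1, with 26 regions, the most-read region held 21.1%.

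Of the 78 regions, 1 was called toward high and 4 toward mid in edgeR's quasi-likelihood test with pairs of replicates as blocks, fitted to the whole table, at a Benjamini-Hochberg adjusted p under 0.01. Over all regions, 2.32% were called in the high direction and 3.77% in the mid direction. The member count of 5 is 6.41% of 78, close to the 6.09% called over all regions. Of all calls, 38.1% were in the high direction with TMM, against 61.0% with total counts only, 54.7% with loess offsets on average log2 CPM and 52.8% with loess offsets on region width. The 4 mid calls were WNT3 regions 2 and 6, FZD7 region 2 and AXIN2 region 7, and the high call was LEF1 region 1. High over mid, the log2 fold change had a median of -0.06 over the members (range -0.84 to 0.82) and of 0.03 over all regions. The populations did not overlap in 10 members higher in high and 11 higher in mid, where all regions gave 12.9% and 13%. At an adjusted p under 0.05, 2 members were higher in high and 9 in mid, where all regions gave 6.03% and 7.08%. Without the replicate block, edgeR called 0 members high (15 in either direction had an unadjusted p under 0.05) and 1 mid, where 0.236% and 1.11% of all regions were called, and with total counts only it called 2 and 2, where 4.19% and 2.68% were. Without the replicate 2 pair edgeR called 0 members, with 9 at an unadjusted p under 0.05 against 18 with all samples, and no other tool was run on that subset. Calls over all regions fell as well, from 2747 to 371 in the high direction and from 4472 to 438 in the mid direction. The log2 fold changes of the mid calls were then -0.66 and -0.56 at WNT3 regions 2 and 6, -0.52 at FZD7 region 2 and -0.40 at AXIN2 region 7, against -0.64, -0.55, -0.46 and -0.47 with all samples. Without high replicate 2 alone 0 members were called (13 at an unadjusted p under 0.05), beside 431 high and 839 mid calls over all regions. Without mid replicate 2 alone 0 members were called (9 at an unadjusted p under 0.05), beside 371 and 432. Of all 118556 regions, 32981 had an unadjusted p under 0.05 with all samples and 25186 without the block. The numbers were 19064 without the replicate 2 pair, 19702 without high replicate 2 alone and 19066 without mid replicate 2 alone.

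**Figure D2:**
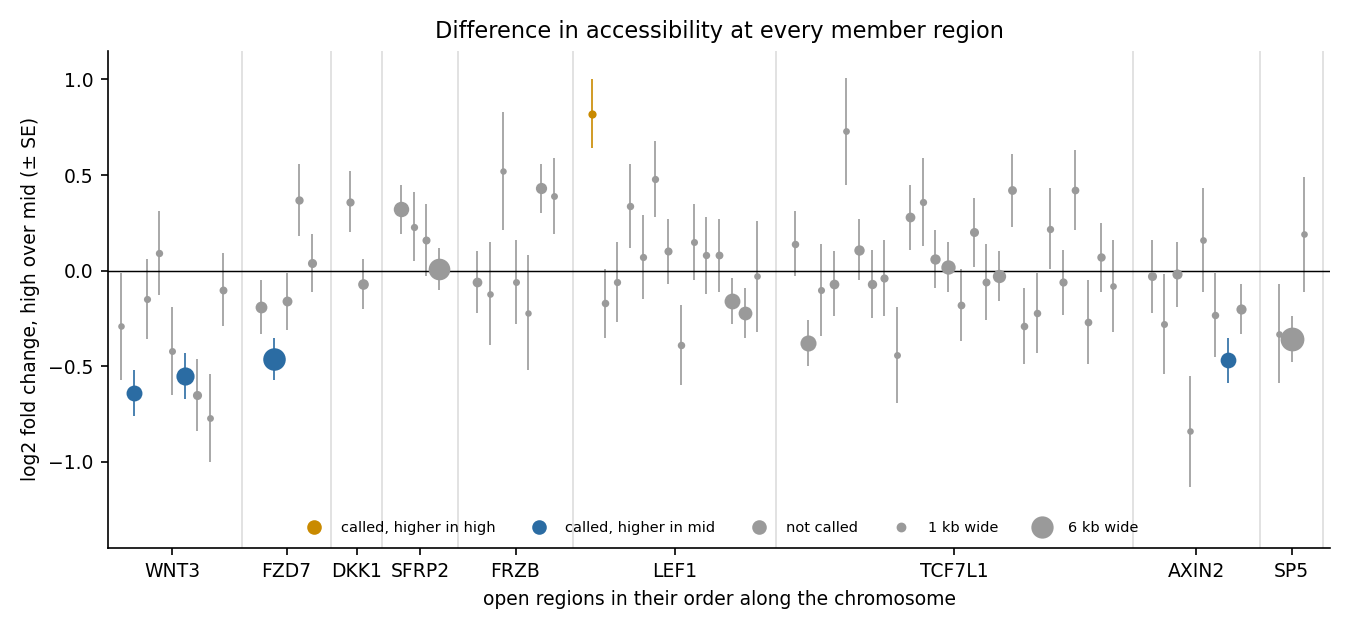
Log2 fold change of high over mid (± SE, edgeR) at each of the 78 member regions, in their order along the chromosome within each locus; point size grows with region width and colour marks regions called at an adjusted p under 0.01. Large points at WNT3, FZD7 and AXIN2 are called toward mid, a narrow region of LEF1 is called toward high, and SFRP2 has no region below 0.

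The mid calls were all among the widest members. Of the 9 members of at least 4000 bp, 4 were called in the mid direction (44.4%), where 40.7% of all 1804 regions of that width were, and the median log2 fold change was -0.38 in both sets. In edgeR with TMM and in DESeq2 with its own size factors, none of the 9 was called in the high direction. In each, 1 had an unadjusted p under 0.05 in that direction. In the edgeR fit, 0.443% of the 1804 were called high. Among the 69 narrower members, 1 was called, in the high direction, where 2.35% of all narrower regions were called high and 3.2% mid. The wide members of WNT3, FZD7, AXIN2, TCF7L1 and SP5 lay between the 10th and 90th percentiles of all regions in their width class. These were -0.71 and 0.08 from 4000 to 6000 bp, and -0.84 and -0.08 at 6000 bp and over. WNT3 region 2 (-0.64) lay below the lower quartile of the 1804 wide regions (-0.58). The 2 wide members of SFRP2 were the only ones of the 9 above 0, and 252 of the 1804 wide regions were above 0.

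**Figure D3:**
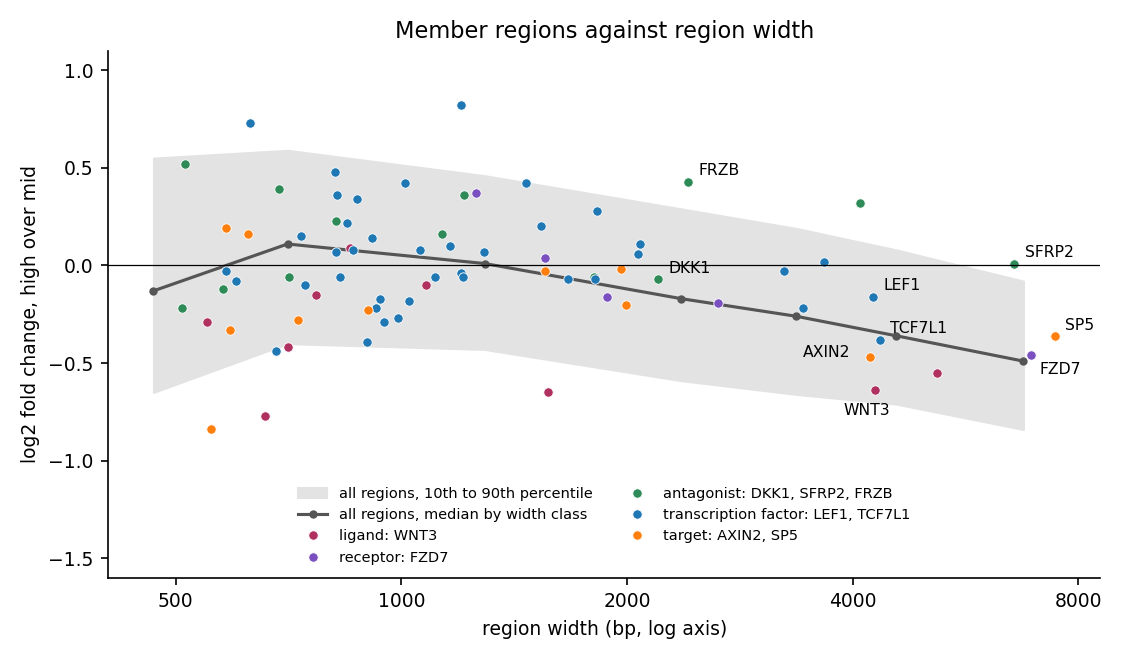
Log2 fold change of high over mid against region width (log axis) for the 78 members, coloured by the role of the gene, with the median and the 10th to 90th percentile of all regions by width class; the most-read region of each locus carries its name. The median of all regions falls from 0.11 between 500 and 1000 bp to -0.49 at 6000 bp and over, and the most-read regions of SFRP2 and FRZB lie above the shaded range while those of WNT3 and AXIN2 lie within it. The shading ends at 6763 bp, the median width of the widest class, and the most-read regions of FZD7 and SP5 are wider than that.

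When width was taken into account in the fit, which of the members were called changed. With loess offsets on region width, edgeR called 4 members in the high direction (SFRP2 regions 1 and 4, FRZB region 6 and LEF1 region 1), where 2.74% of all regions were called high, and 1 in the mid direction (WNT3 region 8), where 2.45% were called mid. With loess offsets on average log2 CPM the same 4 were called high and WNT3 region 7 was called mid, where 3.19% and 2.64% of all regions were called. LEF1 region 1 was the only member called under TMM and under both kinds of offset. The offsets moved the median log2 fold change of regions of at least 4000 bp from -0.38 to -0.01 by width and to -0.14 by average log2 CPM.

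At the ligand gene WNT3, 8 of 9 regions had a log2 fold change below 0, where 55152 of all 118556 regions did. Region 2 (chr17:44847279-44851563, 4285 bp) had 42.3, 42.6 and 46.2 CPM in high replicates 1, 2 and 3 and 72.6, 64.6 and 67.4 in mid replicates 1, 2 and 3. All high values were under all mid values, and the region was 1.56-fold more accessible in the mid population (log2 fold change -0.64, SE 0.12, adjusted p = 0.000149). Without the block it was still called (adjusted p = 0.00660), and it was not called with loess offsets on width (-0.32, adjusted p = 0.0351). Region 6 (chr17:44895183-44900366, 5184 bp) had 32.2, 35.3 and 37.4 CPM in the high replicates and 51.4, 51.1 and 50.9 in the mid replicates, which were nearly equal to each other. The log2 fold change was -0.55 (SE 0.12, adjusted p = 0.00152), and with loess offsets on width it was -0.18 (adjusted p = 0.295). Without the block region 6 was not called (-0.55, adjusted p = 0.0194). High replicate 1 was the lowest of the 6 samples at 5 of the 7 narrower regions (1, 5, 7, 8 and 9). Region 7 (1568 bp) had 2.97, 6.95 and 5.07 CPM in the high replicates and 6.05, 9.61 and 7.32 in the mid replicates (log2 fold change -0.65, adjusted p = 0.0148). Region 8 (chr17:44913041-44913698, 658 bp) had 1.31, 2.95 and 2.59 CPM against 3.45, 3.85 and 4.14, did not overlap between populations, and had a log2 fold change of -0.77 (SE 0.23, adjusted p = 0.0196). The share of the locus's reads in regions 2 and 6 overlapped between populations, 42.3% ± 2.55 against 45.4% ± 2.08 for region 2 and 33.8% ± 0.909 against 34.1% ± 0.365 for region 6 (SD, n = 3; exact permutation p = 0.2 and 0.7). In GRCh38, NSF is the next gene on one side of WNT3, and the regions were not assigned to either gene.

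At the receptor gene FZD7, the widest of 5 regions carried the difference. Region 2 (chr2:202895296-202902225, 6930 bp) had 84.5, 74.4 and 67.0 CPM in high replicates 1, 2 and 3 and 135, 93.7 and 85.7 in mid replicates 1, 2 and 3. The lowest mid value lay just above the highest high value, and the log2 fold change was -0.46 (SE 0.11, adjusted p = 0.00450). The call was lost without the block (-0.48, adjusted p = 0.0795), and with loess offsets on width the fold change was 0.00 to 2 decimals (adjusted p = 0.989). It was also lost with total counts only (-0.36, adjusted p = 0.0134) and without mid replicate 1 (-0.34, adjusted p = 0.0276). Of 10 other fits to all samples 6 called the region, and of 9 fits that left samples out 3 did. Region 4 (1258 bp) differed the other way, with 5.65, 8.24 and 6.52 CPM in the high replicates against 4.73, 5.54 and 5.40 in the mid replicates, and did not pass the test (log2 fold change 0.37, adjusted p = 0.188). The remaining regions had log2 fold changes between -0.19 and 0.04.

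The antagonist genes had no region called with TMM, and their strongest regions differed from each other. FRZB region 6 (chr2:183730271-183732682, 2412 bp) had 35.3, 35.4 and 33.6 CPM in the high replicates and 25.2, 25.1 and 27.2 in the mid replicates. The populations did not overlap, and the log2 fold change of 0.43 (SE 0.13) had an adjusted p of 0.0199 in edgeR's test, above the threshold. The region was called with total counts only (adjusted p = 0.00236) and with loess offsets on width (0.59, adjusted p = 0.000558). It held 55.8% ± 1.65 of the locus's reads in the high replicates against 49.1% ± 1.04 in the mid ones, which did not overlap (SD, n = 3; exact permutation p = 0.1). Region 3 (chr2:183710431-183710945, 515 bp), the member with the fewest reads, had 1.71, 2.21 and 1.74 CPM in the high replicates and 1.05, 1.47 and 1.42 in the mid replicates. Its values did not overlap, and the log2 fold change of 0.52 (SE 0.31) did not pass the test (adjusted p = 0.269). The other 5 regions of FRZB had log2 fold changes between -0.22 and 0.39.

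At SFRP2, region 4 (chr4:154708280-154714855, 6576 bp) was the most-read member of all, with 140, 114 and 107 CPM in high replicates 1, 2 and 3 and 132, 108 and 116 in mid replicates 1, 2 and 3. The populations overlapped, and the log2 fold change was 0.01 (SE 0.11, adjusted p = 0.947), where regions of 6000 bp and over had a median of -0.49. Region 1 (chr4:154678213-154682311, 4099 bp) had 37.4, 36.2 and 34.2 CPM in the high replicates and 28.4, 28.6 and 29.5 in the mid replicates, with no overlap (log2 fold change 0.32, SE 0.13, adjusted p = 0.0866). With loess offsets on width both were called in the high direction, region 4 at 0.45 (adjusted p = 0.00157) and region 1 at 0.62 (adjusted p = 0.000249). Regions 2 and 3 were narrower and overlapped between populations, at 0.23 and 0.16.

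DKK1 had only 2 regions in its window, and neither was called. Their log2 fold changes had opposite signs, but that of region 2 was smaller than its SE of 0.13. Region 2 (chr10:54072858-54075055, 2198 bp) had 36.1, 25.6 and 23.6 CPM in the high replicates and 30.7, 28.2 and 29.4 in the mid replicates, so that high replicate 1 was the highest value and high replicates 2 and 3 the lowest (log2 fold change -0.07, adjusted p = 0.762). Region 1 (chr10:54067827-54069037, 1211 bp) had 14.8, 13.8 and 12.5 CPM in the high replicates and 11.2, 10.2 and 10.7 in the mid replicates (log2 fold change 0.36, SE 0.16, adjusted p = 0.125). Its share of the locus's reads was 32.9% ± 3.26 in the high replicates against 26.6% ± 0.0847 in the mid ones, with no overlap (SD, n = 3; exact permutation p = 0.1).

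Of the DNA-binding effectors, LEF1 held the largest change toward the high population. Region 1 (chr4:108950914-108952115, 1202 bp) had 10.2, 12.1 and 8.96 CPM in high replicates 1, 2 and 3 and 6.20, 4.59 and 6.86 in mid replicates 1, 2 and 3. All high values were over all mid values, and the region was 1.76-fold more accessible in the high population (log2 fold change 0.82, SE 0.18, adjusted p = 0.00146). DESeq2 also called it (adjusted p = 0.00939), while without the block the adjusted p was 0.0228. The replicate 2 pair had the largest difference, 1.40 on the log2 scale against 0.72 and 0.39, and without that pair the log2 fold change was 0.55 (adjusted p = 0.261). Region 1 held 7.67% ± 0.964 of the locus's reads in the high replicates against 4.24% ± 0.753 in the mid ones, with no overlap (SD, n = 3; exact permutation p = 0.1). It lay at the left edge of the LEF1 window, on the side where GRCh38 places HADH, an enzyme gene of fatty acid oxidation, and which gene it belongs to was not determined.

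The most-read region of LEF1 was region 12 (chr4:109087035-109091297, 4263 bp), with 49.9, 49.0 and 41.5 CPM in the high replicates and 53.4, 50.0 and 52.7 in the mid replicates. The populations did not overlap, but high replicate 1 and mid replicate 2 were almost equal, and the log2 fold change was -0.16 (SE 0.12, adjusted p = 0.412). Its neighbour, region 13 (3437 bp), was at -0.22 (adjusted p = 0.291). The other 11 regions of LEF1 lay between -0.39 and 0.48 and were not called.

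TCF7L1, mostly a repressor of WNT targets in the absence of signal, had 26 regions, of which 12 had a log2 fold change above 0 and 14 below, and none was called with TMM. Region 2 (chr2:85359298-85363644, 4347 bp), the most-read and the widest, had 51.4, 47.3 and 52.7 CPM in the high replicates and 76.0, 61.2 and 61.3 in the mid replicates. The populations did not overlap, with mid replicate 1 above the rest, and the log2 fold change was -0.38 (SE 0.12, adjusted p = 0.0241). With upper quartile scaling it was called (adjusted p = 0.00784), and with loess offsets on width it was -0.06 (adjusted p = 0.752). Region 5 (chr2:85394737-85395365, 629 bp) had 4.11, 2.58 and 1.81 CPM in the high replicates and 1.28, 2.08 and 1.61 in the mid replicates. High replicate 1 stood apart, the populations overlapped, and the log2 fold change was 0.73 (SE 0.28, adjusted p = 0.0727). Without the replicate 1 pair it was 0.22 (adjusted p = 0.739), as it was without high replicate 1 alone, and without mid replicate 1 it was 0.24. The other 24 regions lay between -0.44 and 0.42.

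Both target genes had a lower mean in the high population at their most-read region, and 1 of these 2 regions, at AXIN2, passed the test. AXIN2, a scaffold of the complex that degrades beta-catenin, had 7 of 8 regions below 0, where 55152 of all 118556 regions were. Some of the 7 were close to 0, such as region 1 (-0.03, SE 0.19) and region 3 (-0.02, SE 0.17). Region 7 (chr17:63554355-63558572, 4218 bp) had 53.9, 46.3 and 43.7 CPM in the high replicates and 67.7, 70.7 and 60.5 in the mid replicates. No values overlapped, and the region was 1.38-fold more accessible in the mid population (log2 fold change -0.47, SE 0.12, adjusted p = 0.00538). It was not called without the block (adjusted p = 0.0484), with total counts only (-0.38, adjusted p = 0.0167) or with loess offsets on width (-0.15, adjusted p = 0.378). Of 10 other fits to all samples 6 called it, and of 9 fits that left samples out 4 did. Region 4 (chr17:63535174-63535730, 557 bp) had the lowest log2 fold change of all members, -0.84 (SE 0.29, adjusted p = 0.0412), at low counts. Its values were 0.97, 1.23 and 1.85 CPM in the high replicates and 1.95, 2.64 and 2.68 in the mid replicates, so high replicate 3 lay next to mid replicate 1. Region 8 (1993 bp), with 28.3% of the locus's reads, overlapped between populations (-0.20, adjusted p = 0.328).

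SP5, a zinc finger transcription factor whose promoter sequence above carries 3 TCF/LEF cores, had 3 regions, and region 2 (chr2:171567589-171575035, 7447 bp) was the widest of all members. It had 65.4, 55.4 and 55.5 CPM in the high replicates and 85.2, 74.6 and 67.0 in the mid replicates. High replicate 1 came close to mid replicate 3, the populations did not overlap, and the log2 fold change was -0.36 (SE 0.12, adjusted p = 0.0302), above the threshold. With loess offsets on width its sign turned (0.11, adjusted p = 0.515).

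**Figure D4:**
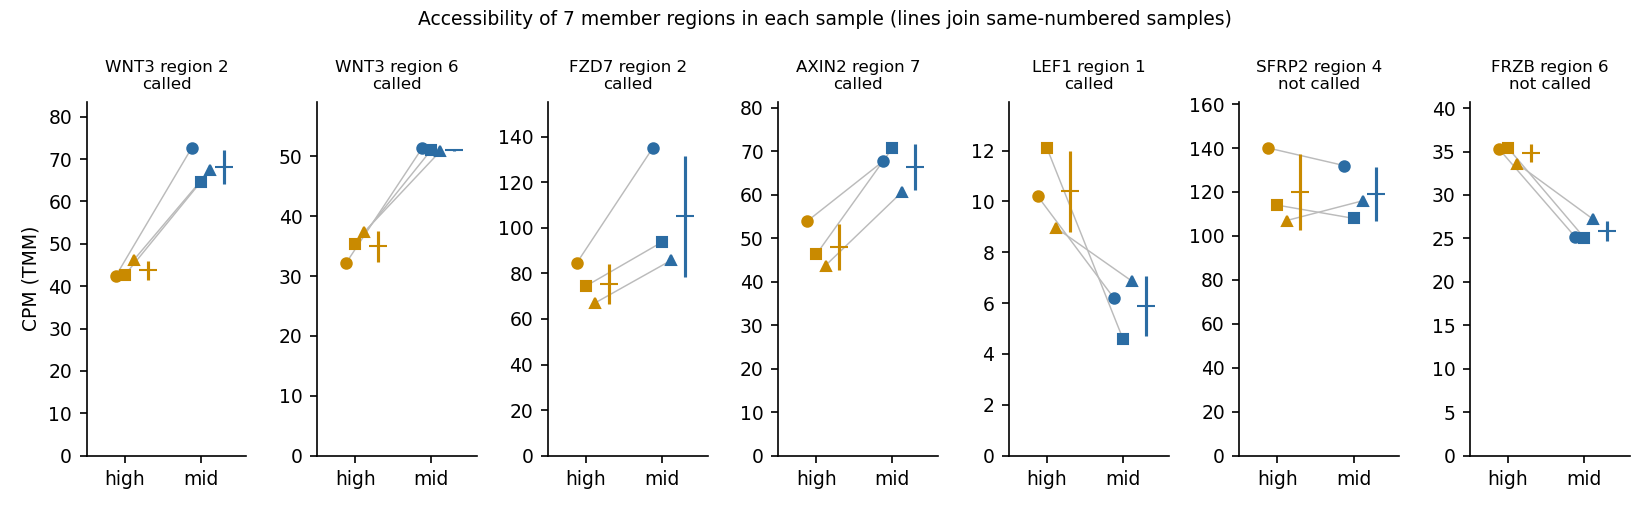
CPM in each of the 6 samples at 7 member regions (the 5 called ones and the most-read regions of SFRP2 and FRZB), with lines joining same-numbered samples and bars at the mean ± SD (n = 3). The high replicates lie below the mid replicates at WNT3 regions 2 and 6, FZD7 region 2 and AXIN2 region 7 and above them at LEF1 region 1 and FRZB region 6, while SFRP2 region 4 overlaps.

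Ratios between regions of 1 library do not depend on the scaling of libraries. The most-read region of each of the other 8 loci was therefore set against SFRP2 region 4, the most-read member, a reference chosen after the data were seen. Since its own log2 fold change was 0.01, these ratios repeat the fold changes above rather than add to them. This reference was also not typical of its width. Regions of 6000 bp and over had a median log2 fold change of -0.49 and a 90th percentile of -0.08. The log2 ratio of WNT3 region 2 was -1.72, -1.42 and -1.21 in high replicates 1, 2 and 3 and -0.86, -0.74 and -0.79 in mid replicates 1, 2 and 3. No high value fell among the mid values, and the means differed by -0.66. Differences of -0.48 at AXIN2, -0.47 at FZD7, -0.40 at TCF7L1 and -0.38 at SP5 likewise came without overlap, and FRZB region 6 differed by 0.41 in the other direction. For these 6 regions the exact permutation test gave p = 0.1, the smallest possible, and 0.133 after adjustment over 8 ratios. Ratios of other regions to this reference were not computed, so no share over all regions stands beside these 6. DKK1 region 2 (-0.09, exact permutation p = 0.3) and LEF1 region 12 (-0.17, exact permutation p = 0.2) overlapped. These are unequal changes relative to SFRP2, and a change shared by both regions of a ratio cannot be seen in them.

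**Figure D5:**
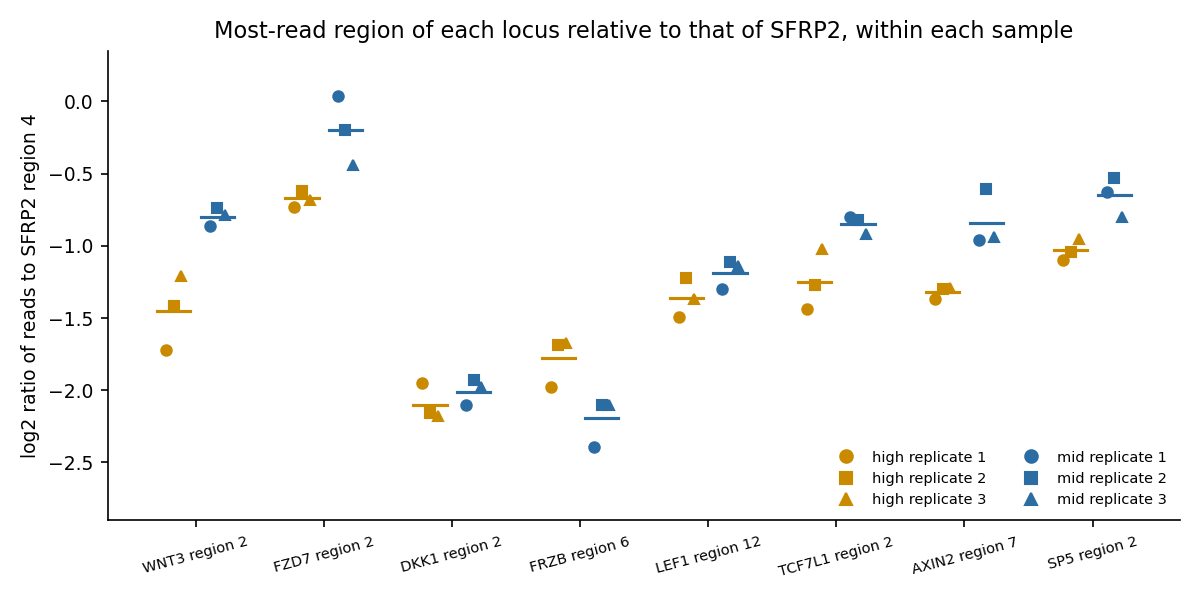
Log2 ratio of the most-read region of 8 loci to SFRP2 region 4 within each of the 6 libraries, with group means. The ratios of 6 loci separate the populations, with WNT3, FZD7, AXIN2, TCF7L1 and SP5 lower and FRZB higher in the high replicates, and those of DKK1 and LEF1 overlap.

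The loci also differed in their surroundings, taken as all regions within 1 Mb on each side of the window. Around WNT3, 108 flanking regions had a median log2 fold change of -0.24, and 13 of them of at least 2000 bp had a median of -0.34, so the lower values in the high population were not confined to the WNT3 window. Around FRZB the 97 flanking regions had a median of 0.35, near the 0.43 of FRZB region 6, and around LEF1, SFRP2 and DKK1 the medians were 0.21, 0.20 and 0.17. Their flanking regions of at least 2000 bp had medians of 0.41 at FRZB (n = 4), 0.21 at LEF1 (n = 5) and 0.09 at DKK1 (n = 2). At SFRP2 that median was 0.13 (n = 17), above the 0.01 of SFRP2 region 4 and below the 0.32 of region 1, so values above 0 were not confined to the SFRP2 window. At FZD7 and SP5 the values are given side by side with those of their flanks, where the regions of at least 2000 bp had medians of 0.01 (n = 15) and 0.00 to 2 decimals (n = 11), against -0.46 and -0.36 at their own most-read regions, and no test of this difference was made. The widths differ, since the most-read regions are 6930 and 7447 bp wide, and over all regions the median was -0.49 at 6000 bp and over but -0.17 between 2000 and 3000 bp. Around AXIN2 and TCF7L1 flanking regions of at least 2000 bp had medians of -0.31 (n = 8) and -0.24 (n = 16).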

How the data were processed

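FAST-ATAC libraries of 6 samples (3 high, 3 mid) were sequenced. The authors deposited counts of reads per open region, not normalized, on hg19. The submitters' processing notes name CASAVA, Trimmomatic, BWA 0.7.15, SAMtools 0.1.19 and MACS 1.4.2, and the study's methods add removal of duplicates, a shift of reads to the Tn5 cut site and blacklist removal. Regions were called on pooled replicates and merged between populations, so all samples share them. Region starts were read as 0-based and are printed 1 higher. All 118556 regions were fitted with edgeR 4.0.16 (R 4.3.3, limma 3.58.1): TMM scaling, quasi-likelihood test of high over mid with replicate number as a block, Benjamini-Hochberg adjusted p under 0.01. Average log2 CPM used a prior count of 2, and log2 fold changes used edgeR's default prior count. Same-numbered samples deviated together from their group means (r = 0.302, 0.191 and 0.234, against -0.257 to 0.0599 for other pairs), so the numbers were taken to pair the samples. That the numbers mark a shared sort is not stated in the labels. Tested on simulated data with 200 of 118556 regions changed by 1 on the log2 scale, the fit recovered 109 with 1 false call. These changes were larger than that of any member, and no shift with region width was simulated. Recovery of changes as small as those of the members was therefore not measured. Exact permutation tests over samples (scipy 1.17.1) were two-sided.

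The members and gene lists were chosen with earlier results of these data known. Named regions were, in each locus, the one with most reads, the one with the smallest p and each one called, and over all members the 3 highest and 3 lowest log2 fold changes. Other regions are named as context and were chosen after their values were seen. Windows could not be checked against an hg19 annotation. Alternatives were DESeq2 1.42.0, other scalings, loess offsets (span 0.3), no block, a batch of 2 levels, a likelihood ratio test, a filter of CPM above 1 in 3 samples, and leaving out samples. All columns of per-sample values were used.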

Additional observations from a re-analysis of the deposited data

How the results depend on the processing

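Over all regions, 2747 calls in the high direction became 968 with DESeq2, 280 without the replicate block, 4971 with total counts only, 7145 at an adjusted p under 0.05, and 371 to 3815 when samples were left out. The 4472 mid calls became 2901 with loess offsets on width, 1312 without the replicate block, 8391 at an adjusted p under 0.05, and 432 to 5500 when samples were left out. Among members, 1 high call became 4 with either loess offset, 0 without the replicate block, 2 with total counts only, 2 at an adjusted p under 0.05 and 0 to 2 when samples were left out. The 4 mid calls became 1 with either loess offset, 1 without the replicate block, 2 with total counts only, 9 at an adjusted p under 0.05 and 0 to 5 when samples were left out. The 1 mid call was WNT3 region 8 with loess offsets on width and WNT3 region 7 with those on average log2 CPM. Neither was among the 4, and none of the 4 was called with either offset. Over all regions, 2.74% were called high and 2.45% mid with offsets on width, and 3.19% and 2.64% with those on average log2 CPM. The share of calls in the high direction was 21.0% with DESeq2 and 17.6% without the block. Without the block, edgeR gave 15 members an unadjusted p under 0.05, against 18 with it, where all regions gave 25186 and 32981. The 4 loci lower in every pair became 2 without their most-read regions. Signs turned at DKK1 region 2 (-0.07, to 0.10 and 0.06 with loess offsets on average log2 CPM and width, 0.02 with total counts only, and -0.26 to 0.06 when samples were left out), at SFRP2 region 4 (0.01, to -0.01 with upper quartile scaling, and -0.04 to 0.09 when samples were left out), at LEF1 region 12 (-0.16, to 0.09 and 0.16 with the loess offsets) and at SP5 region 2 (-0.36, to 0.11 with loess offsets on width), none of them called with TMM. The cause of these changes was not tested. Where a sample was left out of a pair, its partner no longer informed the paired difference. Depth limits the narrow regions, with as few as 17 reads in a sample.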
